A study of Mus musculus with 19 samples.

Results

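S100 proteins are small calcium-binding proteins built from a pair of EF-hand motifs, the helix-loop-helix fold that holds calcium in many signalling proteins. The 9 S100 genes described here are S100a1, S100a4, S100a6, S100a8, S100a9, S100a10, S100a11, S100a13 and S100a16, found by symbol among the 54146 gene identifiers of each whole-kidney RNA library. They were selected on measured TPM: the values of these same libraries in both groups were known when the genes were chosen. Their differences between groups are therefore descriptions, carry no test and support nothing further. The 5 libraries are RNA sequencing of whole kidneys from B6C3F1/J mice taken at postnatal day 21, when the animals were 3 weeks old. The KspCre DKO group (labelled KspCre Dnmt3ab f/f) held 2 libraries, in which Cre under the Ksp-cadherin promoter, active in kidney tubule epithelium, acts on floxed Dnmt3a and Dnmt3b. The control group (labelled Dnmt3ab f/f) held 3 libraries with the same floxed genes and no Cre. Both genes encode de novo DNA methyltransferases, which methylate cytosines that carried no mark before. The comparison sets kidneys labelled as carrying KspCre against kidneys without it. The series has 19 samples, of which the 14 bisulfite libraries are not analysed here, so DNA methylation at these genes is not reported. Nothing in the labels ties each library to its own animal, and the errors and p-values below measure only the spread between these libraries.

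Most S100 proteins form dimers that change shape on binding calcium and then grip a target protein, such as an annexin or a myosin heavy chain, without any enzyme activity of their own. S100a10 is an exception, since its calcium loops no longer bind the ion and it stays joined to annexin A2. A few members, above all S100a8 and S100a9, are released from myeloid cells and act outside the cell on receptors such as Ager and Tlr4. In the kidney the family is best known for S100g, calbindin-D9k, which buffers calcium in the distal tubule, and for S100a4, used as a marker of fibroblasts.

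All 9 genes lie on chromosome 3 of the mouse genome (GRCm38.p6), within 3053.6 kb from 90511034 to 93564645. S100a1, S100a13, S100a16, S100a4, S100a6, S100a8 and S100a9 stand in that order within the first 184.7 kb. S100a11 and S100a10 follow after a gap of 2824.8 kb, which holds genes of the skin barrier. The RefSeq intervals of S100a1 (90511034 to 90514330) and S100a13 (90514233 to 90524581) overlap by 98 bases and are read in opposite directions. Whether reads were counted by strand is not given in the sources used here, so the overlapping bases could not be assigned with certainty to either gene. S100a4 (90603770 to 90606045) and S100a6 (90612894 to 90614414) are separated by 6848 bases that contain S100a5.

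Promoter sequence is shown for S100a6, the gene with the highest log2 fold change among the 9, for its neighbour S100a4, whose groups overlapped, and for S100a11, the most abundant. The stretch between the starts of S100a1 and S100a13 is shown because both genes were lower in both KspCre DKO libraries. All are RefSeq sequences of GRCm38.p6, plus strand, ending at the base before the transcript start (for the last, lying between the start of S100a1 and a start of S100a13). Capitals mark CpG dinucleotides, the bases at which DNA methyltransferases act, and the motifs TATAAA and TGANTCA.
S100a6, chr3:90612644-90612893: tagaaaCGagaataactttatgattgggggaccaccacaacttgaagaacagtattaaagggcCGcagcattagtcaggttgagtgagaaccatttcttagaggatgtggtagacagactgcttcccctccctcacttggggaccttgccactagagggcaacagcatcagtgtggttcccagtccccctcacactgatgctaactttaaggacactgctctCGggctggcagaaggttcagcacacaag
S100a4, chr3:90603520-90603769: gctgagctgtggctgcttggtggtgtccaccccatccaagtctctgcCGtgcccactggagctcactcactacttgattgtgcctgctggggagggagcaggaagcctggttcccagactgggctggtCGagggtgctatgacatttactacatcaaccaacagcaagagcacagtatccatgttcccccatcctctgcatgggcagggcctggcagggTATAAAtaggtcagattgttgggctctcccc
S100a11, chr3:93520246-93520495: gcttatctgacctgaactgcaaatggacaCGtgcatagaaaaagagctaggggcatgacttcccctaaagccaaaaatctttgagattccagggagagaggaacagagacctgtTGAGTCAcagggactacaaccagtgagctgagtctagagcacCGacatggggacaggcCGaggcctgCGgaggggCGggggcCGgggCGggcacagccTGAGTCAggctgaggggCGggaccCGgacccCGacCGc
S100a1 to S100a13, chr3:90514331-90514434: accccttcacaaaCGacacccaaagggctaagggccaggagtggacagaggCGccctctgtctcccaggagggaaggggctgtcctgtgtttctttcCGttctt
The 250 bases before S100a6 held 3 CpG, those before S100a4 held 2 and those before S100a11 held 11. The 104 bases between S100a1 and S100a13 held 3. In S100a4 the motif TATAAA began 31 bases before the start, and S100a11 held TGANTCA, the letters bound by AP-1 factors, at 2 places.

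RefSeq windows of 300 bases (250 before to 50 after the start) were present for 8 of the 9 genes, S100a16 having 2, and CpG and motifs were counted in these against all 32851 windows. The median window held 7 CpG, with quartiles of 3 and 20. S100a11 had 15 CpG, S100a13 had 14 and S100a1 had 11, while S100a6 had 6, S100a8 had 4 and S100a4 and S100a9 had 2 each. The 2 windows of S100a16 had 2 and 4. As few CpG as in S100a4 or fewer were found in 23.3% of all windows, and as few as in S100a6 or fewer in 47.9%. On both strands, TATAAA was present in the windows of S100a4, S100a8 and S100a9, 3 of 9 windows against 13.6% of all windows. TGANTCA was present in those of S100a11 and S100a16, 2 of 9 against 7.81%. GGGCGG, the GC box, whose letters include a CpG, was present in 3 of 9 (S100a9, S100a11 and S100a16) against 35.7%.

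The values are TPM, transcript abundances corrected for gene length and scaled to a fixed sum in each library. The sequencing depth behind them is unknown. A gene was tested if its mean over the 5 libraries was at least 1 TPM, which 13963 genes passed, among them all 9 S100 genes. S100a8 passed through the control group, since it stayed below 1 TPM in both KspCre DKO libraries. KspCre DKO replicate 2 stood apart, where 14710 genes were above 0, against 20510 for KspCre DKO replicate 1 and 18488 to 20075 for the controls. Mitochondrially encoded genes held 30.98% of its TPM, against 22.1% in KspCre DKO replicate 1 and 18.2% to 23.2% in the controls. Its log2 values correlated with the other libraries at 0.886 to 0.918 across genes, against 0.922 to 0.958 among those. Dnmt3a stood at 9.98 and 14.2 TPM in the KspCre DKO libraries against 13.2, 18.97 and 15.5 TPM in the controls. Dnmt3b stood at 2.29 and 3.25 TPM in the KspCre DKO libraries against 1.82, 2.86 and 1.98 TPM in the controls. Both overlapped between the groups, so the labels could not be checked from the targeted genes. Defining kidney genes, among them Aqp2 and Slc12a1, were present in every library.

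S100a6 was the only one of the 9 genes that was higher in both KspCre DKO libraries than in any control. S100a8, S100a9, S100a1 and S100a13 were lower in both than in any control, and S100a10, S100a4, S100a11 and S100a16 overlapped. Thus libraries did not overlap for 5 of the 9 genes, against 26.1% of all tested genes. In the lower direction the count was 4, against 15.6% of tested genes, and in the higher direction it was 1, against 10.5%. The 4 include S100a8, which passed the filter only through the control group. In limma, fitted across all tested genes with Benjamini-Hochberg adjustment, 0 of the 9 passed an adjusted p of 0.05, where 0.165% of tested genes did (0.1% higher and 0.0645% lower). At an unadjusted p below 0.05 there were 4 of the 9, against 10.3% of tested genes; 1 was higher, against 4.16%, and 3 were lower, against 6.15%. These counts come from the comparison that was known when the genes were named, and nothing is read from them. The median log2 fold change of the 9 was −0.28, against −0.14 for all tested genes. Of the 9, 3 had a positive and 6 a negative value. Of all tested genes 38.3% had a positive value, the background for the counts of higher and lower genes in every list below. For list counts at an unadjusted p below 0.05 the background is 4.16% higher and 6.15% lower.

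**Figure D1:**
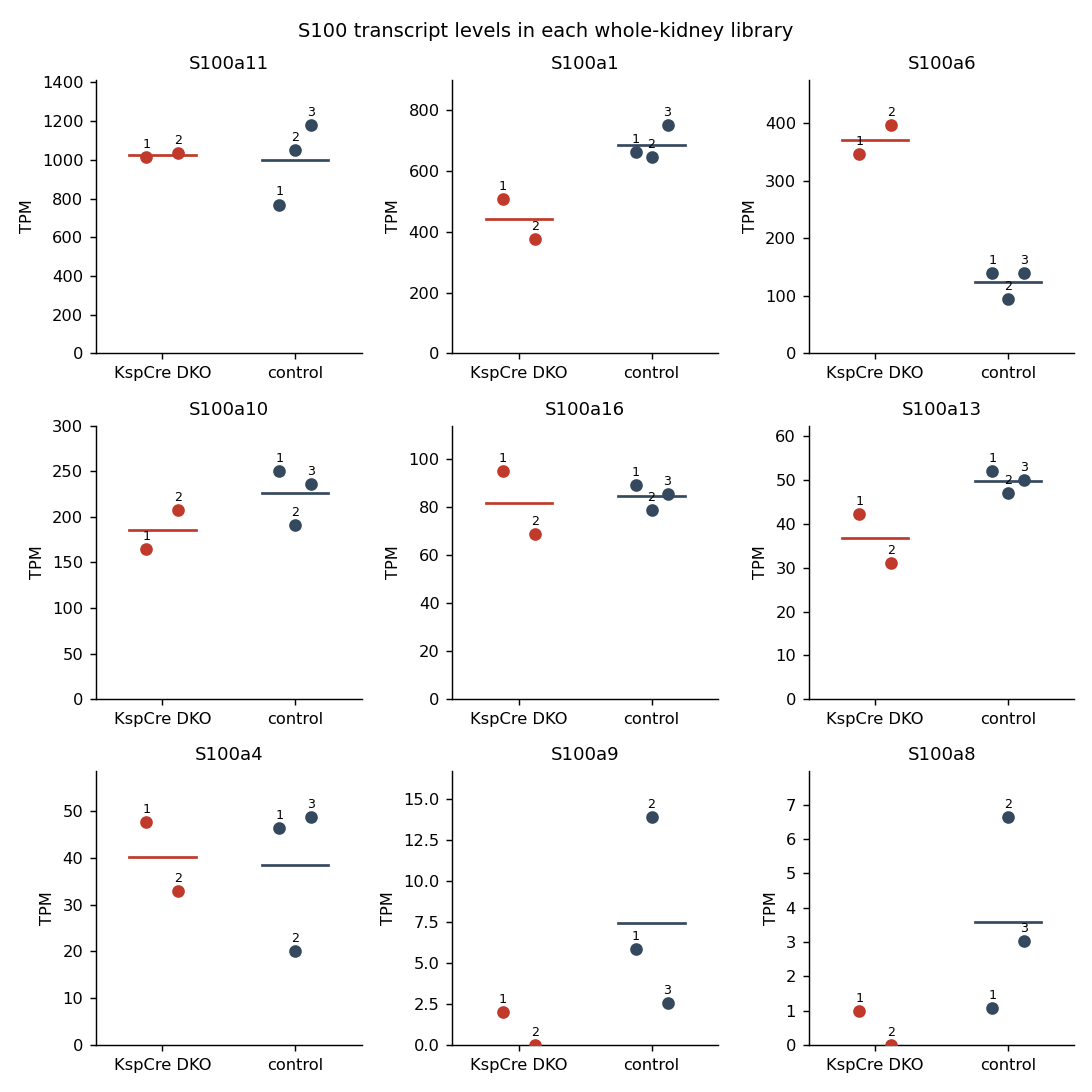
TPM of the 9 S100 genes (y axes, each from 0) in the 2 KspCre DKO and 3 control libraries. Points are libraries numbered by replicate, and horizontal lines are group means, left out where a library is listed at 0. S100a6 sits at 346 and 396 TPM in the KspCre DKO libraries, above all 3 controls, while both KspCre DKO libraries of S100a11 lie inside the range of the controls.

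S100a6, calcyclin, binds the ubiquitin ligase adaptor Cacybp and the co-chaperone Sugt1 in a calcium-dependent way. It stood at 346 and 396 TPM in the KspCre DKO libraries against 139, 94.0 and 139 TPM in the controls. Both KspCre DKO libraries lay far above the highest control, and they differed from each other less than from any control. The means were 371 ± 35.1 TPM in KspCre DKO libraries (SD, n = 2) and 124 ± 26 TPM in controls (SD, n = 3), a ratio of 2.99. Its log2 fold change on log2(TPM + 1) was 1.59 ± 0.27 (SE), higher than that of 98.6% of tested genes, and 1.73 relative to the median of all genes. S100a6 held 15.6% and 18.4% of the summed TPM of the 9 genes in the KspCre DKO libraries, against 6.89%, 4.38% and 5.58% in the controls. Its ratio to the neighbouring S100a4 was 7.27 and 12 in the KspCre DKO libraries against 2.99, 4.69 and 2.85 in the controls.

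Among the intracellular partners of S100a6, Cacybp stood at 23.7 and 17.5 TPM in the KspCre DKO libraries against 21.2, 17.6 and 28.2 TPM in the controls, overlapping between groups (limma adjusted p = 0.934). Among 8679 genes searched, each averaging 5 TPM or more, the pattern most like that of S100a6 over the 5 libraries was that of Rab11fip1, an effector of recycling endosomes. The root mean square difference of its centred log2 values from those of S100a6 was 0.137. Rab11fip1 stood at 16.1 and 15.1 TPM in the KspCre DKO libraries against 5.54, 3.85 and 4.74 TPM in the controls. The next was Slc40a1, the iron exporter ferroportin, at a difference of 0.158.

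Summed markers of collecting duct principal cells and of urothelium were also higher in the KspCre DKO libraries than in any control. The 11 collecting duct markers found of 12 summed to 2577 and 2585 TPM in the KspCre DKO libraries, against 1079 to 1158 TPM in the controls. Aqp2 and Fxyd4 made up most of that difference. Aqp2 stood at 1414 and 1218 TPM in the KspCre DKO libraries against 347, 240 and 426 TPM in the controls. Fxyd4 stood at 541 and 755 TPM against 277, 340 and 228 TPM. The 14 urothelial markers summed to 873 and 678 TPM in the KspCre DKO libraries, against 423 to 503 TPM in the controls. Most of that difference lay in Psca and in Krt18, which is also on the list of tubule injury markers. Psca stood at 316 and 179 TPM in the KspCre DKO libraries against 71.0, 28.6 and 36.0 TPM in the controls. Krt18 stood at 206 and 123 TPM against 86.3, 76.6 and 57.5 TPM. Neither the collecting duct sum nor the urothelial sum is therefore a rise shared across its list. No marker of either list was at 0 in a KspCre DKO library. Of the tested members, 7 of 11 collecting duct and 7 of 12 urothelial genes were higher, with medians of 0.62 and 0.30. None was called (5 and 4 were higher at an unadjusted p below 0.05, and 1 urothelial gene was lower). Aqp2, the vasopressin-regulated water channel, had a fitted log2 difference of 2.0 ± 0.29 (SE; adjusted p = 0.0512), Elf5 of 2.51 and Fxyd4 of 1.2 (adjusted p = 0.0705 and 0.178). Scnn1b and Scnn1g, subunits of the epithelial sodium channel of the same cells, were lower in both KspCre DKO libraries than in any control, with log2 differences of −0.24 and −0.25 (adjusted p = 0.788 and 0.791). Hsd11b2 and Stc1 had −0.20 and −0.22 and overlapped. Psca, a urothelial surface gene, had 2.48 ± 0.42 (SE; adjusted p = 0.081), Upk3b had 1.94 and Krt14 had −1.41 (adjusted p = 0.18 and 0.26). The part of these cells in the level of S100a6 was not tested, and in whole kidney a different number of cells of a type and a different amount of RNA per cell cannot be told apart.

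S100a8 and S100a9 encode the subunits of calprotectin, which neutrophils and monocytes store in quantity and release in inflammation. S100a9 stood at 2.01 and 0 TPM in the KspCre DKO libraries against 5.86, 13.9 and 2.55 TPM in the controls. S100a8 stood at 0.98 and 0 TPM in the KspCre DKO libraries against 1.08, 6.65 and 3.04 TPM in the controls. Both were lowest in the KspCre DKO libraries and highest in control replicate 2, and the lowest control lay close to KspCre DKO replicate 1 in each. Their log2 fold changes of −2.04 ± 0.67 and −1.51 ± 0.61 (SE) depended on the pseudocount, reaching −3.72 and −3.15 with a pseudocount of 0.1 and −0.97 and −0.60 with 5. Whether the 0 in KspCre DKO replicate 2 is a failed estimate was not tested. Of 5043 genes with a control mean of 2 to 10 TPM, 7.65% were listed at 0 in that library, against 0.615% in KspCre DKO replicate 1 and 0.397% to 0.773% in the controls. Without KspCre DKO replicate 2 the log2 fold changes of S100a9 and S100a8 were −1.25 and −1.02.

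All 13 macrophage and monocyte markers found of 16 had a negative log2 fold change, with a median of −0.69. None was called (3 at an unadjusted p below 0.05). Of the 13, 4 were lower in both KspCre DKO libraries than in any control, against 15.6% of tested genes, and the others overlapped. The 13 markers summed to 70.3 and 59.0 TPM in the KspCre DKO libraries against 83.8 to 175 TPM in the controls. Fcer1g was at 0 in KspCre DKO replicate 2. Lyz2, lysozyme of macrophages, had a log2 fold change of −1.82, Fcer1g of −2.40 and C1qc, a complement subunit, of −1.23. The sums of S100a8 and S100a9 were 2.99 and 0 TPM in the KspCre DKO libraries against 6.94, 20.6 and 5.59 TPM in the controls. Control replicate 2, the highest in S100a8 and S100a9, was the lowest control in the macrophage sum. All 13 neutrophil markers summed to 28.6 and 22.9 TPM in the KspCre DKO libraries against 8.89 to 16.3 TPM in the controls, and 9 of them were at 0 in KspCre DKO replicate 2 and 5 in replicate 1, against 4 to 5 in each control. Those other than Lcn2, which injured tubules also make, summed to 3.33 and 1.53 TPM in the KspCre DKO libraries against 4.34 to 5.13 TPM in the controls. Camp, Mmp8, Mpo, Elane and Ly6g were at 0 in both KspCre DKO libraries and in control replicate 2. In the other controls Elane and Ly6g were also at 0, and Camp, Mmp8 and Mpo reached at most 0.63, 0.12 and 0.44 TPM, so their groups overlapped. Lcn2 itself stood at 25.3 and 21.4 TPM in the KspCre DKO libraries against 11.9, 3.76 and 8.16 TPM in the controls (adjusted p = 0.264). Only 2 of the 13 neutrophil markers were tested, with 0 called (Lcn2 at an unadjusted p below 0.05) and a median of 0.49, Csf3r being the other at −0.58. The part of myeloid cell number in S100a8 and S100a9 was not tested.

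**Figure D2:**
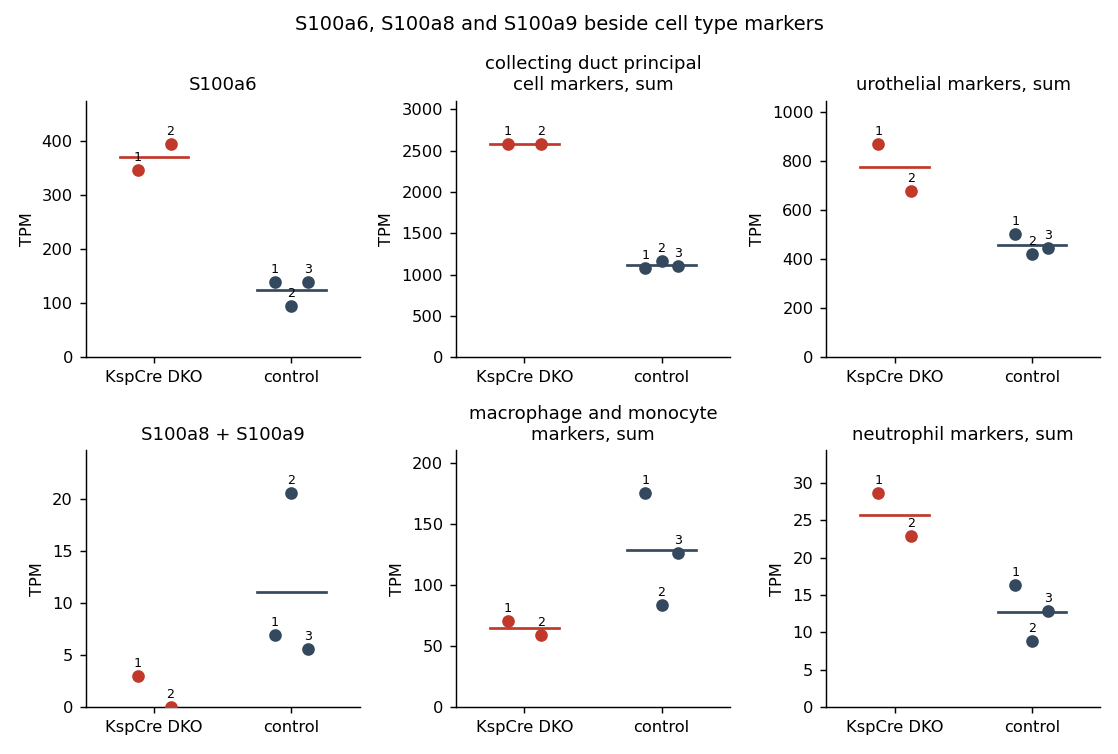
TPM (y axes, from 0) of S100a6 and of S100a8 plus S100a9 beside the summed TPM of 4 lists of cell type markers, in the 2 KspCre DKO and 3 control libraries. Points are libraries numbered by replicate and lines are group means, left out where a library is at 0. The collecting duct sum is higher in both KspCre DKO libraries and the macrophage sum lower. The neutrophil sum is mostly Lcn2 except in control replicate 2.

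S100a1, best known from heart muscle where it regulates the calcium pump Atp2a2 and ryanodine receptors, was the second most abundant of the 9 genes. It stood at 509 and 376 TPM in the KspCre DKO libraries against 663, 645 and 751 TPM in the controls. S100a13, which takes part in the release of growth factors that lack a signal peptide, stood at 42.4 and 31.2 TPM in the KspCre DKO libraries against 52.1, 47.2 and 50.1 TPM in the controls. In both genes KspCre DKO replicate 2, the library with the highest mitochondrial share, was the lowest and KspCre DKO replicate 1 lay between it and the controls. The log2 fold changes were −0.65 ± 0.24 for S100a1 and −0.44 ± 0.27 for S100a13 (SE). Those of 14.3% and 25% of all tested genes were lower still. Without KspCre DKO replicate 2 the values were −0.43 and −0.23, and without KspCre DKO replicate 1 they were −0.86 and −0.66. With TPM rescaled without mitochondrial genes they were −0.53 and −0.33. That rescaling moved the median of all tested genes from −0.14 to −0.04. Relative to the median S100a1 was at −0.49 after rescaling and −0.51 before, and S100a13 at −0.29 and −0.31. The median also moved to 0.13 without KspCre DKO replicate 2 and to −0.39 without KspCre DKO replicate 1. Relative to it S100a1 was at −0.56 without replicate 2 and −0.47 without replicate 1, and S100a13 at −0.36 and −0.27. The ratio of S100a1 to S100a13 was 12 and 12.1 in the KspCre DKO libraries against 12.7, 13.7 and 15.0 in the controls. Atp2a2, the target of S100a1, stood at 55.9 and 22.8 TPM in the KspCre DKO libraries against 38.5, 45.7 and 46.4 TPM in the controls, overlapping (adjusted p = 0.841).

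The pattern most like that of S100a1 was that of Uqcr11, a subunit of respiratory complex III, at a root mean square difference of 0.0207 over the 5 libraries, followed by Ndufs3, a subunit of complex I, at 0.0319. Uqcr11 stood at 1197 and 876 TPM in the KspCre DKO libraries against 1595, 1496 and 1797 TPM in the controls. The pattern most like that of S100a13 was that of Rras, a small GTPase, at 0.023, followed by Abhd8 at 0.0358.

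S100a10, S100a11, S100a16 and S100a4 overlapped between the groups. S100a11, which pairs with annexin A1, was the most abundant, at 1017 and 1034 TPM in the KspCre DKO libraries against 769, 1050 and 1179 TPM in the controls. Its KspCre DKO values lay inside the range of the controls. S100a10, the partner of annexin A2 at the inner face of the plasma membrane, stood at 165 and 207 TPM in the KspCre DKO libraries against 250, 192 and 236 TPM in the controls. KspCre DKO replicate 1 was the lowest library and the other overlapped the controls. The log2 fold changes were 0.06 ± 0.25 for S100a11 and −0.28 ± 0.25 for S100a10 (SE). S100a16 stood at 95.1 and 68.8 TPM in the KspCre DKO libraries against 89.4, 78.7 and 85.5 TPM in the controls, so the KspCre DKO libraries lay on either side of the controls. Its log2 fold change was −0.06 ± 0.27 (SE), and it turned positive with median-of-ratios scaling, with quantile normalization, with TPM rescaled without mitochondrial genes and without KspCre DKO replicate 2 (0.05, 0.10, 0.05 and 0.17). The 3 scalings brought the median of all tested genes to −0.04, −0.02 and −0.04. Relative to that median S100a16 lay between 0.0031 and 0.12 in the 14 alternatives run.

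S100a4, also called metastasin, binds non-muscle myosin heavy chain Myh9 and loosens myosin filaments. It stood at 47.7 and 33.0 TPM in the KspCre DKO libraries against 46.5, 20.0 and 48.8 TPM in the controls. Control replicate 2 was the lowest library, and both KspCre DKO libraries lay inside the range of the controls. The log2 fold change was 0.14 ± 0.42 (SE), and without control replicate 2 it was −0.26. Without KspCre DKO replicate 1 it was −0.11. The 16 fibroblast markers summed to 340 and 515 TPM in the KspCre DKO libraries against 891, 343 and 948 TPM in the controls, so control replicate 2 was also low in these. Of 15 tested fibroblast markers, 14 had a negative log2 fold change, with a median of −0.79. None was called (5 lower at an unadjusted p below 0.05). Postn had a log2 fold change of −2.85, Mmp2 of −1.52 and Col6a1 of −1.09. Lum was at 0 in KspCre DKO replicate 2. The part of fibroblast number in S100a4 was not tested. Myh9 stood at 48.3 and 31.3 TPM in the KspCre DKO libraries against 40.0, 33.2 and 43.0 TPM in the controls (adjusted p = 0.993). The pattern most like that of S100a4 was that of the syndecan gene Sdc3, at 0.0721, followed by Tmod3 at 0.0752. Those nearest to S100a10 were Ap4s1 and Dhrs11 at 0.0538 and 0.0589, to S100a11 Npm3 and Zmynd19 at 0.0526 and 0.0539, and to S100a16 Eif2ak1 and Dhrs1 at 0.033 and 0.0355. For S100a8 and S100a9 the nearest genes were Pantr2 at 0.348 and Shmt1 at 0.409. Both members averaged below the 5 TPM required of the genes searched, at 2.35 and 4.87 TPM. Most genes of their own level were thus left out, and these distances cannot be compared with the others.

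The order of the levels differed between groups at a few places. In the KspCre DKO libraries it ran S100a11, S100a1, S100a6, S100a10, S100a16, S100a4, S100a13, S100a9 and S100a8, with means of 1026, 442, 371, 186, 81.9, 40.3, 36.8, 1.01 and 0.49 TPM. In the controls it ran S100a11, S100a1, S100a10, S100a6, S100a16, S100a13, S100a4, S100a9 and S100a8, with means of 999, 686, 226, 124, 84.5, 49.8, 38.5, 7.44 and 3.59 TPM. Library ranges of neighbours in the order overlapped for S100a1 and S100a6 in the KspCre DKO libraries only. Those of S100a4 and S100a13, and of S100a8 and S100a9, overlapped in both groups. The 9 genes together summed to 2225 and 2146 TPM in the KspCre DKO libraries against 2017, 2147 and 2494 TPM in the controls, which overlapped.

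**Figure D3:**
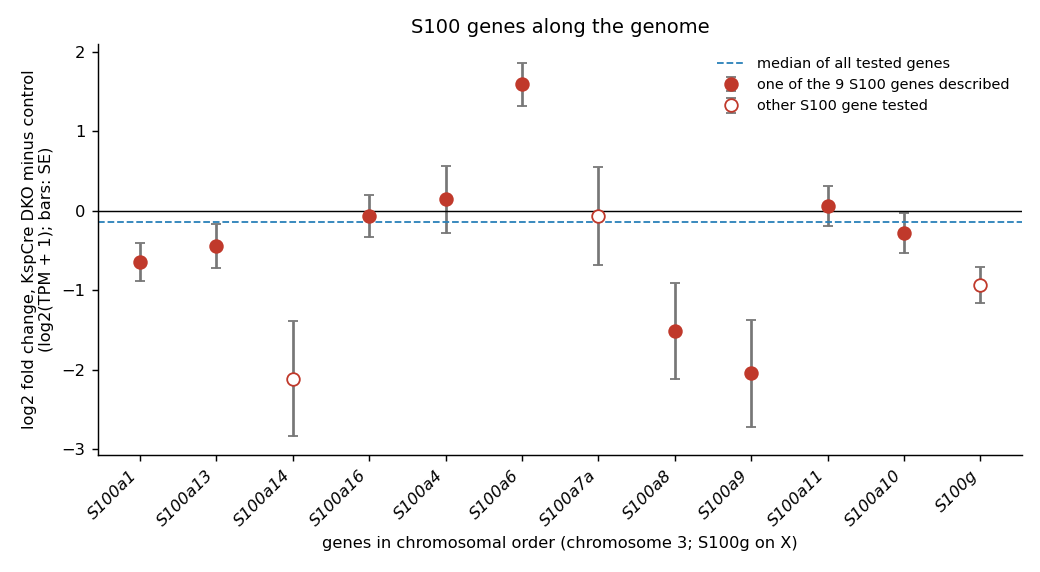
Log2 fold change on log2(TPM + 1), KspCre DKO minus control (y axis; bars, SE), of the 12 tested S100 genes in chromosomal order (x axis). Filled points are the 9 genes described and open points the other tested S100 genes; the dashed line is the median of all tested genes. S100a6 stands at 1.59 between S100a4 at 0.14 and S100a7a at −0.06.

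Of the 8 other S100 genes listed, 7 were found and 3 were tested. None of the 3 was called by limma, and 2 were lower at an unadjusted p below 0.05. S100g stood at 1634 and 2247 TPM in the KspCre DKO libraries against 3970, 3306 and 3706 TPM in the controls, with a fitted log2 difference of −0.93 ± 0.23 (SE; adjusted p = 0.201). Both KspCre DKO libraries lay below all controls, and S100g held 42.2% and 51.1% of the summed S100 TPM in them, against 66.2%, 60.4% and 59.6% in the controls. S100a14, next to S100a13, stood at 5.34 and 0 TPM in the KspCre DKO libraries against 6.27, 15.97 and 9.41 TPM in the controls (log2 fold change −2.11 ± 0.72 SE, adjusted p = 0.368). It was called only without KspCre DKO replicate 1 (adjusted p = 0.0428), which leaves the library where it was at 0. S100a7a stood at 3.16 and 0 TPM in the KspCre DKO libraries against 1.07, 0.88 and 1.49 TPM in the controls (adjusted p = 0.979). S100a3, S100a5 and S100b stayed at or below 1.66 TPM in every library and S100z was listed at 0 in all.

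Few genes between the S100 genes on chromosome 3 reached the level for testing. Of 86 other RefSeq genes in the interval, 76 were found and 8 were tested, with 4 higher and 4 lower, a median of 0.12 and none called (1 higher and 1 lower at an unadjusted p below 0.05). Sprr1a, a cornified envelope gene that is also among the urothelial markers, was the most abundant of the 8. It stood at 92.8 and 106 TPM in the KspCre DKO libraries against 76.8, 78.5 and 81.3 TPM in the controls, without overlap (log2 fold change 0.33 ± 0.24 SE, adjusted p = 0.681). Sprr2a3 stood at 13.5 and 18.7 TPM in the KspCre DKO libraries against 4.29, 0.46 and 3.61 TPM in the controls (adjusted p = 0.188). Sprr2a2 stood at 11.4 and 0.14 TPM in the KspCre DKO libraries against 39.5, 29.6 and 59.3 TPM in the controls (adjusted p = 0.198). Sprr2a2 and Sprr2a3 are close copies, so the division of reads between them is uncertain. Of the 7 fused S100-type genes, which join an S100 domain to long repeats in skin, Tchh alone was tested, at 5.66 and 1.36 TPM in the KspCre DKO libraries against 1.51, 1.21 and 0.86 TPM in the controls (adjusted p = 0.599). Tchhl1 reached at most 1.25 TPM, Rptn 0.06 TPM, and Hrnr, Flg, Flg2 and Crnn were listed at 0 in all libraries.

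Annexins, the calcium-dependent membrane-binding partners of S100 dimers, were tested for 9 of 12 listed genes. Of these 7 were higher and 2 lower; the median was 0.26 and none was called (1 lower at an unadjusted p below 0.05). Anxa2, the partner of S100a10, stood at 205 and 140 TPM in the KspCre DKO libraries against 157, 99.2 and 151 TPM in the controls, overlapping (adjusted p = 0.725). Anxa3 stood at 17.6 and 13.9 TPM in the KspCre DKO libraries against 44.1, 33.8 and 56.9 TPM in the controls, with a fitted log2 difference of −1.43 ± 0.31 (SE; adjusted p = 0.167). Both KspCre DKO libraries lay below every control. On the log2 scale Anxa11 differed by 0.55, Anxa8 by 0.75 and Anxa9 by 0.38 (adjusted p = 0.52, 0.557 and 0.705). Anxa1 and Ahnak are not analysed here.

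Of 20 intracellular S100 partners listed, 13 were tested, 6 higher and 7 lower, with a median of −0.03 and none called (1 higher at an unadjusted p below 0.05). Myh10, non-muscle myosin heavy chain IIB, stood at 65.6 and 66.1 TPM in the KspCre DKO libraries against 36.6, 27.5 and 44.4 TPM in the controls, with a fitted log2 difference of 0.87 ± 0.29 (SE; adjusted p = 0.354). Trpv5, the apical calcium channel that needs S100a10 and annexin A2 to reach the membrane, stood at 3.11 and 3.13 TPM in the KspCre DKO libraries against 7.76, 3.85 and 3.73 TPM in the controls (adjusted p = 0.687). Plat, tissue plasminogen activator, overlapped (adjusted p = 0.714).

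Of 8 receptors of extracellular S100 proteins, 7 were tested, 2 higher and 5 lower, with a median of −0.54 and none called (1 higher and 1 lower at an unadjusted p below 0.05). Ager, the receptor for S100 proteins and advanced glycation end products, stood at 4.23 and 9.61 TPM in the KspCre DKO libraries against 5.25, 8.67 and 10.3 TPM in the controls (adjusted p = 0.872). Tlr4, the lipopolysaccharide receptor that calprotectin also binds, was at or below 1.82 TPM in every library and was not tested. Cd36, a scavenger receptor, and Bsg, basigin, had fitted log2 differences of −1.01 and −0.54 (adjusted p = 0.431 and 0.524). Alcam and Mcam, cell adhesion molecules, had 0.80 and −0.61 (adjusted p = 0.481 and 0.584).

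Among 34 tested genes of 43 other EF-hand proteins, 11 were higher and 23 lower (median −0.15), and 1, Calml3, was called. Calml3, a calmodulin-like protein of epithelia, rose to 26.8 and 18.1 TPM in the KspCre DKO libraries, against 2.02, 2.07 and 3.14 TPM in the controls (log2 fold change 2.77 ± 0.34 SE, limma adjusted p = 0.0379). Both KspCre DKO libraries were far above the controls, but Calml3 missed the threshold when control replicate 2, control replicate 3 or KspCre DKO replicate 2 was left out, at adjusted p = 0.149, 0.118 and 0.106. It also missed it with no filter on low values (adjusted p = 0.282) and without the trended prior (adjusted p = 0.0583). Rcn1, a calcium-binding protein of the endoplasmic reticulum, stood at 4.90 and 4.75 TPM in the KspCre DKO libraries against 12.4, 12.5 and 17.4 TPM in the controls (adjusted p = 0.173). Rcn2, of the same family, had a log2 fold change of 0.84 and Efhd1 of −0.89 (adjusted p = 0.343 and 0.328).

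**Figure D4:**
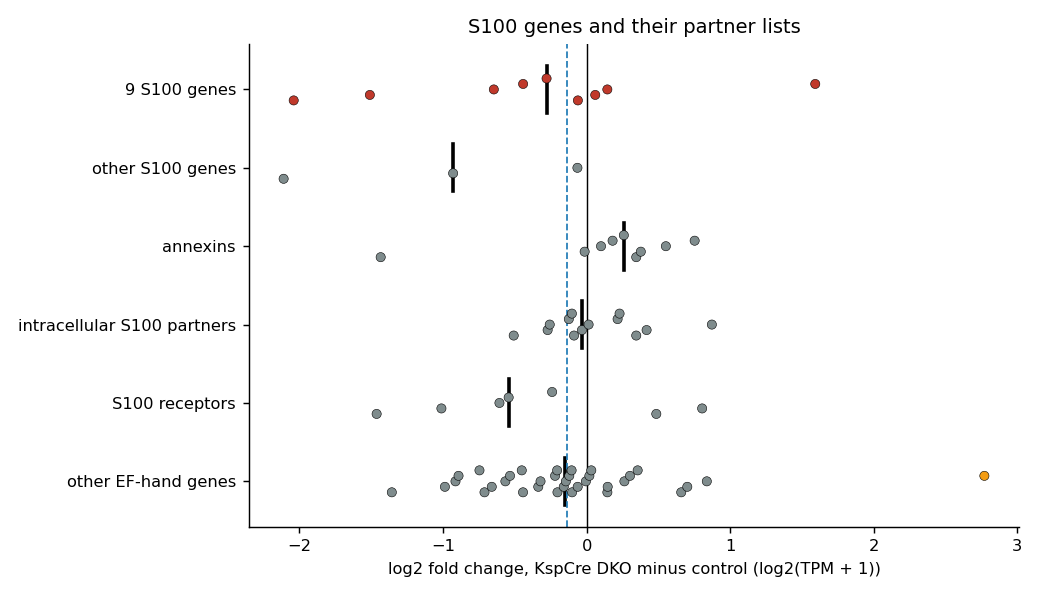
Log2 fold change on log2(TPM + 1), KspCre DKO minus control (x axis), of tested genes in 6 lists (rows); black bars are list medians, the dashed line the median of all tested genes, red points the 9 S100 genes and the orange point the called gene. Calml3 lies at 2.77, and the annexin median is 0.26 against −0.28 for the 9 S100 genes.

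The fold changes of the 9 genes were recomputed under 14 alternatives (13 for S100a8 and S100a9, which did not pass a mean of 5 TPM). S100a6 stayed between 1.41 and 1.82, and between 1.37 and 2.08 relative to the median of all genes. S100a1 and S100a13 stayed negative, between −0.86 and −0.30 and between −0.66 and −0.23, as did S100a10, between −0.44 and −0.06, though relative to the median of all genes S100a10 was at 0.28 without KspCre DKO replicate 1. S100a8 and S100a9 also stayed negative, over a range of −3.15 to −0.60 and −3.72 to −0.97. The sign of S100a16 changed in 4 of the alternatives, that of S100a4 in 2 and that of S100a11 in 1, without control replicate 1 (−0.12).

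**Figure D5:**
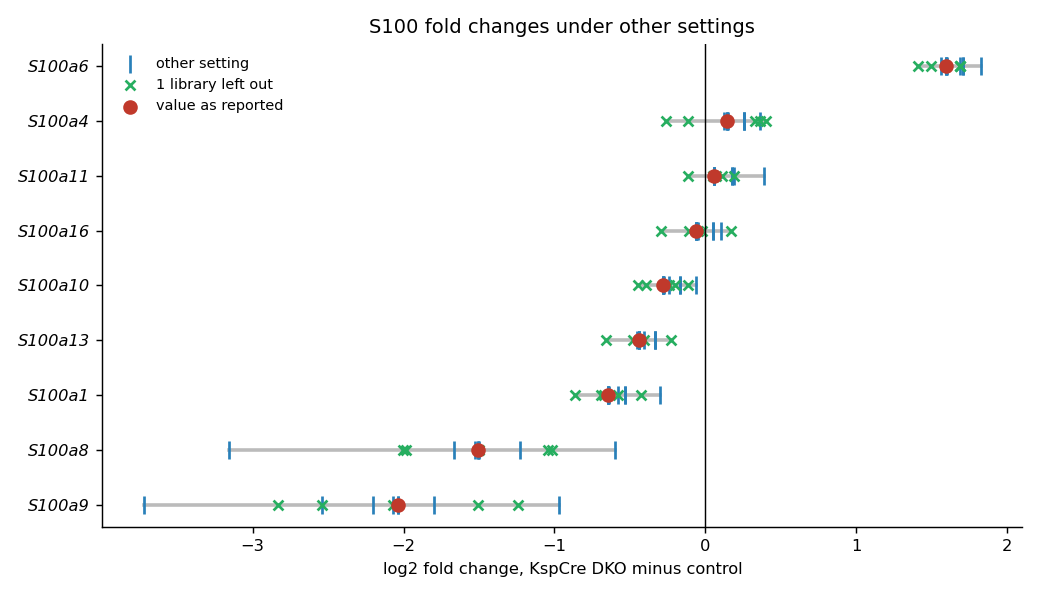
Log2 fold change of the 9 S100 genes, KspCre DKO minus control (x axis), as reported (red) and under other settings (blue bars) or with 1 library left out (green crosses). S100a6 stays between 1.41 and 1.82, while S100a8 and S100a9 spread most.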

How the data were processed

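Total RNA of whole kidneys was purified by RNeasy columns, and TruSeq libraries were made from its polyadenylated fraction, as described in the labels. Tools listed in the submitters' processing notes are STAR 2.2.1, RSEM 1.3.1, Trim Galore 0.5.0 and Bismark 0.19.1, with mm10 as the build; their roles are not stated there. The deposited values are the authors' TPM per Ensembl gene. TPM keep no depth, so no counting interval is printed. Neither annotation release nor strandedness is given in the sources used here. A table of gene names gave symbols for 52480 identifiers (96.9%) and for 254 of 273 listed genes. Positions and promoters are RefSeq's for GRCm38.p6, matched by symbol.

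Libraries were grouped by title. limma 3.58.1 (R 4.3.3) was fitted to log2(TPM + 1) of 13963 genes averaging 1 TPM or more, with a trended prior. Its p-values were two-sided, Benjamini-Hochberg adjusted and called below 0.05. The fit was also run on simulated data with the same spread in every library. That run does not cover a library standing apart, as KspCre DKO replicate 2 did. An exact permutation of 3 against 2 libraries cannot give p below 0.1. The genes and lists were chosen with earlier results of these data known. Genes named are the 9, the other S100 genes, those of smallest p in each list, fixed partners and the 2 genes nearest in pattern. Lum, the neutrophil genes at 0, Krt18, Scnn1b, Scnn1g, Hsd11b2, Stc1 and Atp2a2 were named after their values were seen. Alternatives were pseudocounts, filters, scalings, the prior, the replicate block and leaving out each library.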

Additional observations from a re-analysis of the deposited data

How the results depend on the processing

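The count of all genes called was 23 (14 higher, 9 lower). It was 14 (7 and 7) with a pseudocount of 0.1, 39 (28 and 11) with 5, 4 (3 and 1) with no filter, 24 (16 and 8) with a mean of at least 5 TPM, 31 (24 and 7) with median-of-ratios scaling, 42 (35 and 7) with quantile normalization, 37 (26 and 11) without mitochondrial genes, and 9 (6 and 3) without trend. Leaving out 1 library gave 6 to 560 (3 to 90 higher, 3 to 470 lower). Both extremes rest on a lone KspCre DKO library, assumed to vary like the controls. With the replicate block it was 75 (47 and 28), and 1 of the 9 S100 genes, S100a6, was called, where 0 were in all other settings. Replicate numbers were not shown to pair libraries, and control replicate 3 has no partner in the block. Deviations of same-numbered libraries from their group means correlated at 0.0926 and 0.0281. With 2 KspCre DKO libraries the deviations of one mirror those of the other, so these correlations are not separate checks and cannot decide on pairing. Of other list genes 1, Calml3, was called. The count was 3 with a pseudocount of 5, 0 with no filter, 2 with a mean of at least 5 TPM, 2 with either median-of-ratios scaling or quantile normalization, 3 without mitochondrial genes, 0 without trend, 6 with the block and 0 to 10 with 1 library left out. Of genes between the S100 genes on chromosome 3, 1 (Sprr2a2) was called with the block, and 0 to 1 with 1 library left out. The cause of these differences was not tested.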

Other observations

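The remaining marker lists gave no call in limma. Over all tested genes 4.16% were higher and 6.15% lower at an unadjusted p below 0.05. Thick ascending limb markers were lower in 10 of 10 tested genes (median −1.34; 8 lower at an unadjusted p below 0.05), with Slc12a1 at −2.15, Wfdc15b at −1.35 and Tmem207 at −1.46. Distal convoluted and connecting tubule markers, a list that holds S100g, were lower in 6 of 8 (median −0.47; 2 lower at an unadjusted p below 0.05). Intercalated cell markers were lower in 8 of 9 (median −0.44; 2 lower at that p). Lymphocyte markers were lower in 3 of 5 (median −1.16; 1 higher and 2 lower), smooth muscle markers in 5 of 6 (median −0.61; 2 lower) and endothelial markers in 8 of 10 (median −0.14; 1 lower). Podocyte markers were lower in 6 of 8 (median −0.17; 0 at that p) and proximal tubule markers in 6 of 11 (median −0.06; 2 lower). Tubule injury markers were higher in 6 of 9 (median 0.14; 2 higher) and red cell markers in 6 of 7 (median 1.15; 2 higher). Dnmt1 stood at 8.05 and 7.84 TPM in the KspCre DKO libraries against 8.78, 8.04 and 8.35 TPM in the controls, and Dnmt3l reached at most 0.44 TPM. Of the DNA methyltransferase genes 3 were tested, with a median of −0.07 and 0 at that p.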
